A study of Mus musculus with 2 samples.

Results

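The genes described are 51 splicing factor genes, chosen by name: the SR protein genes, the kinases that phosphorylate SR proteins, the hnRNP and PTB genes, and factors that recognise splice sites. Of these, 50 were matched by gene name in a table of 22383 genes, and Srsf12 is not analysed here. RNA was sequenced from stable lines of iHFSC2, an immortalized mouse hair follicle stem cell line. The shcircSmad5 line was infected with a lentivirus whose hairpin targets circSmad5, named as a circular RNA of Smad5, and the empty vector line with a lentivirus lacking it. Puromycin was added to both lines from day 4 after infection, and day 15 is given as the time at which they were established. There was 1 library for each line, so no difference below has a replicate check and no p-value is given. Gene counts do not measure circSmad5 itself, so the labels could not be checked on the targeted RNA. Effects of the hairpin, of expressing any hairpin and of separate selection cannot be told apart.

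The gene counts summed to 38382081 in the shcircSmad5 library and to 39261010 in the empty vector library, and 13596 genes reached 20 counts in either library. The labelled cell type was checked against keratinocyte and stem cell markers. Krt14, a basal keratin gene, had 226645 counts in the shcircSmad5 library and 162982 in the empty vector library, and Krt5, its partner keratin, had 224675 and 206538. The bulge keratin gene Krt15 had 79 counts in the shcircSmad5 library and 253 in the empty vector library, and the bulge marker Cd34 had 0 in both. Of the stem cell transcription factor genes, Sox9 had 5301 counts in the shcircSmad5 library and 8829 in the empty vector library. In the same order Nfatc1 had 2077 and 2300, Tcf7l1 had 498 and 483, and Lhx2 had 5 and 4. The fibroblast markers Col1a1, Dcn and Lum had 0 counts in both libraries, and the 8 fibroblast markers together had 74 counts in the shcircSmad5 library and 172 in the empty vector library. Of 6 listed melanocyte markers, the 2 matched by gene name together had 32 and 24 counts in the same order. Endothelial markers (4 of 5 matched) had 31 and 119, and leukocyte markers (5 of 6 matched) had 228 and 257. Most of the leukocyte counts were those of Cd68, at 225 and 249. In bulk RNA, fewer cells of a type and less RNA per cell cannot be told apart.

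SR proteins are RNA-binding proteins with a domain rich in arginine and serine, and they mostly favour the use of exons they bind. hnRNP proteins coat nascent transcripts and often act against them, so that the balance of both classes sets which exons enter an mRNA. Many of these genes limit their own output by including a poison exon, a short exon with an early stop codon that sends the transcript to nonsense-mediated decay.

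Transcript annotation was not used in the choice by name. In GENCODE M21, 39 of the 50 measured genes (78.0%) have an annotated nonsense-mediated decay transcript, against 29.0% of 11548 other protein-coding genes with at least 20 counts and 30.7% of the 6772 of them with at least 1000. A poison exon was counted here as an internal exon of such a transcript that holds its stop codon. It also had to overlap no exon of a coding transcript. Such an exon was found in 13 of the 50 (26.0%), against 7.72% of the 11548 others and 8.36% of the 6772. A retained intron transcript was annotated in 42 of the 50 (84.0%), against 59.5% of the 11548 others and 66.3% of the 6772. The median log2 ratio between the libraries, defined below, was 0.02 for the genes with a poison exon and 0.04 for those without. Examples follow, each printed on the coding strand from the first base of the exon to the stop codon that ends the reading frame, which is in capitals.
Srsf4: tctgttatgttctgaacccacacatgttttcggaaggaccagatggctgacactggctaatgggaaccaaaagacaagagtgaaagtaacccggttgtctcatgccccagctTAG
Srsf11: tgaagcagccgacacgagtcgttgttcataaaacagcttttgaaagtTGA
Tra2b: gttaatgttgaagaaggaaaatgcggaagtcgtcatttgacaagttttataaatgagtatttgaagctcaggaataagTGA
Srsf3: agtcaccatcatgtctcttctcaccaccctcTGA
Hnrnpl: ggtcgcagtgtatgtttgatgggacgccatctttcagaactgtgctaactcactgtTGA
On GRCm38 these stretches lie at chr4:131884276-131884390 on the plus strand (Srsf4), chr3:158023310-158023359 on the minus strand (Srsf11), chr16:22259181-22259261 on the minus strand (Tra2b), chr17:29039454-29039487 on the plus strand (Srsf3) and chr7:28817335-28817393 on the plus strand (Hnrnpl). They are shown because a gene count adds the reads of transcripts with and without such an exon. The values below therefore measure the RNA of a gene, not the share of it that encodes the protein.

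The splicing factor genes were close to level between the libraries, and Srsf4 stood above the rest. A ratio is the shcircSmad5 value over the empty vector value after TMM scaling, and its interval is a 95% interval of counting error only. Calling a gene higher or lower required 20 counts in either library, a ratio past a fold limit and an interval that excluded a ratio of 1. At 2-fold, 0 of the 50 genes were called, where 14.7% of all 13596 genes were (8.43% higher and 6.24% lower). At 1.5-fold, 1 of the 50 was called higher, where 13.9% of all genes were, and 0 were called lower, where 12.9% were (26.8% in either direction). Most of the 50 genes are abundant, and 49 of them reached 1000 counts in either library. Of the 6883 genes with that many counts, 4.04% were called at 2-fold (1.19% higher and 2.85% lower) and 13.6% at 1.5-fold (3.72% higher and 9.92% lower).

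The median log2 ratio of the 50 genes was 0.03, beside -0.02 over all 13596 genes and -0.07 over the 6883 abundant ones. Their interquartile range was 0.32, beside 0.66 over all genes and 0.48 over the abundant ones. The lowest ratio was -0.58 and the highest 0.87. The counting interval lay above 0 for 23 genes, below 0 for 14 and held 0 for 13, so that counts of this depth separate differences that are far under 1.5-fold. Over all 13596 genes it lay above 0 for 4740, below 0 for 5230 and held 0 for 3626. Over the 6883 abundant ones these counts were 2339, 3444 and 1100. Together the 50 genes took 1.32% of all counts in the shcircSmad5 library (exact binomial 95% interval 1.320 to 1.327) and 1.26% in the empty vector library (1.256 to 1.263). These are shares of unscaled totals, a scale on which log2 ratios lie 0.06 above those under TMM. On that scale the median log2 ratio of all 13596 genes was 0.05.

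**Figure D1:**
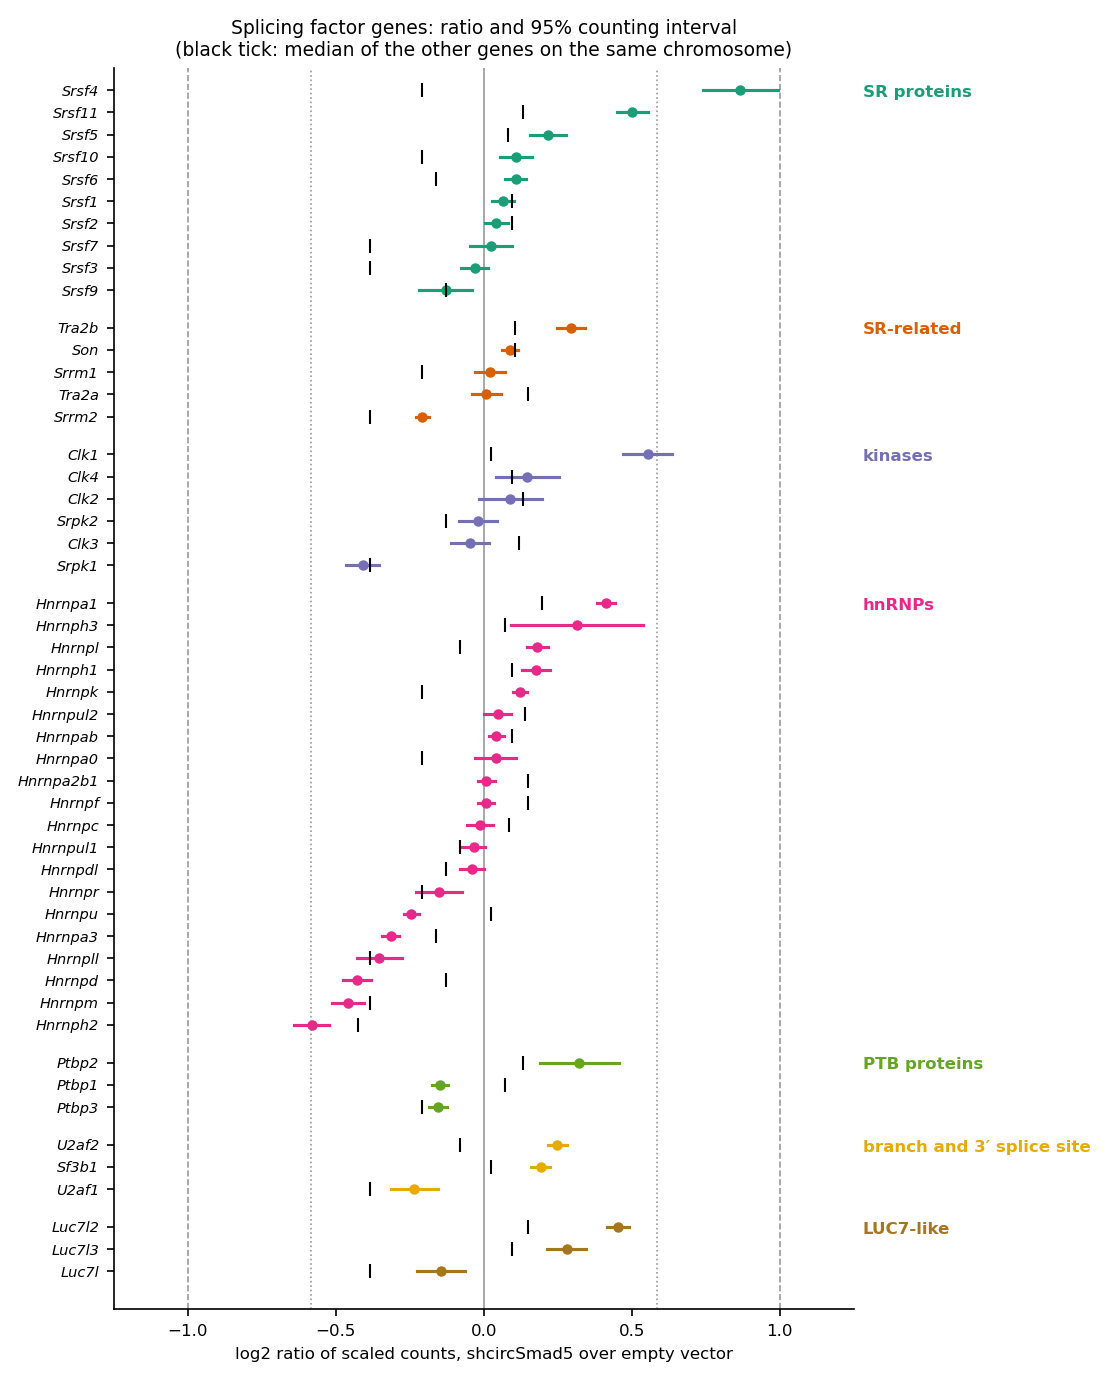
Log2 ratio of scaled counts (shcircSmad5 over empty vector) for each of 50 splicing factor genes by role, with its 95% counting interval. Dotted and dashed lines mark 1.5-fold and 2-fold, and black ticks the median of the other genes on the same chromosome. Srsf4, at 0.87, is the only gene past the 1.5-fold line, and Hnrnph2, at -0.58, lies just short of it on the other side.

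Of the 10 SR protein genes measured, 8 had log2 ratios above 0, beside 6623 of all 13596 genes and 2867 of the 6883 abundant ones. The median of the 10 was 0.09. With each chromosome centred it was 0.30, with 7 of the 10 above the median of their chromosome and 3 below. Of the abundant genes, 2915 lay above the median of their chromosome and 3956 below. Srsf4 encodes an SR protein with a long arginine and serine domain. It had 1459 counts in the shcircSmad5 library and 784 in the empty vector library, which is 37.2 and 20.4 CPM, the count scaled to library size. Its ratio was 1.82-fold, a log2 ratio of 0.87 (0.74 to 0.99). The gene (ENSMUSG00000028911) lies on GRCm38 chromosome 4, 131873617 to 131901706, plus strand.

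The value of Srsf4 is uncertain where counting ignored strand, and the strand setting is not given in the sources used here. Exons of Gm12992, a noncoding transcript on the opposite strand, cover 43.0% of its exonic bases. Gm12992 had 21 counts in the shcircSmad5 library and 0 in the empty vector library. With 3 counts in place of the 0 its ratio was 6.86-fold, and the lower end of its counting interval was 5.10-fold. An unspliced model on the same strand, A930004J17Rik, lies inside an intron of Srsf4. It had 620 counts in the shcircSmad5 library and 307 in the empty vector library, a log2 ratio of 0.98 (0.78 to 1.19). The intronic model and the spliced gene thus differed between the libraries in the same direction. Models of its annotation class had a median log2 ratio of 0.64 over 667 models, and long noncoding RNA genes had one of 0.90 over 630. The part of Gm12992 or A930004J17Rik in the ratio of Srsf4 was not tested.

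Srsf11, an SR-related factor that associates with U2AF, had 7239 counts in the shcircSmad5 library and 5010 in the empty vector library. Its log2 ratio was 0.50 (0.45 to 0.55), the second highest of the SR proteins and under the 1.5-fold limit of 0.58. Srsf5, a regulator closely related to Srsf4 and Srsf6, had 4864 counts in the shcircSmad5 library and 4101 in the empty vector library, a log2 ratio of 0.22 (0.16 to 0.28). Srsf6 itself had 12904 and 11730 counts in the same order and a log2 ratio of 0.11 (0.07 to 0.14). The members of this subfamily thus lay apart from each other, with Srsf4 0.76 log2 units above Srsf6 (0.63 to 0.89).

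The best-known SR proteins were nearly level. Srsf1, the founding member that also shuttles mRNA to the cytoplasm, had 12670 counts in the shcircSmad5 library and 11861 in the empty vector library, a log2 ratio of 0.07 (0.03 to 0.10). Srsf2, a nuclear speckle protein and the most abundant SR protein gene per length, had 10869 counts (95.7 FPKM) in the shcircSmad5 library and 10337 counts (89.0 FPKM) in the empty vector library, with a log2 ratio of 0.04 (0.00 to 0.08). Srsf3, the smallest SR protein, had 7835 and 7839 counts and an interval that held 0, and Srsf7, its close relative, had 3253 and 3131 and likewise. Srsf10, which represses splicing when it loses its phosphates, had a log2 ratio of 0.11 (0.06 to 0.16). The lowest SR protein gene was Srsf9, a relative of Srsf1, with a log2 ratio of -0.13 (-0.22 to -0.04). It had 2005 counts in the shcircSmad5 library and 2147 in the empty vector library. With each chromosome centred, Srsf9 was at -0.002 and Srsf2 was the lowest, at -0.05.

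Among the SR-related genes, log2 ratios ran from -0.21 to 0.29. Tra2b, a splicing activator that binds purine-rich enhancers, had 7926 counts in the shcircSmad5 library and 6331 in the empty vector library, a log2 ratio of 0.29 (0.25 to 0.34). Its paralog Tra2a had 7044 and 6855 counts and an interval that held 0. Srrm2, a scaffold of nuclear speckles, was the most abundant of the group per length and had the lowest ratio. It had 31619 counts in the shcircSmad5 library and 35771 in the empty vector library, a log2 ratio of -0.21 (-0.23 to -0.19) that became 0.18 with each chromosome centred. Son, the other scaffold of speckles, had 22939 and 21118 counts and a log2 ratio of 0.09 (0.06 to 0.12). Srrm1, a coactivator of exon enhancers, had an interval that held 0.

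Among the kinases, Clk1 had the highest ratio. Clk1 encodes a nuclear kinase that releases SR proteins from speckles, and its own transcripts are known for retaining introns in the nucleus. It had 3008 counts in the shcircSmad5 library and 2008 in the empty vector library, which is 76.7 and 52.3 CPM. Its ratio was 1.47-fold, a log2 ratio of 0.55 (0.47 to 0.64), under the 1.5-fold limit. Clk4, a close paralog of Clk1, had 1511 and 1336 counts and a log2 ratio of 0.15 (0.04 to 0.25), and Clk1 lay 0.41 log2 units above it (0.27 to 0.54). Clk3, the most abundant CLK gene per length in both libraries, had 3768 counts in the shcircSmad5 library and 3811 in the empty vector library, a log2 ratio of -0.05 (-0.11 to 0.02). The interval of Clk2 also held 0.

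Srpk1, the cytoplasmic kinase that sends SR proteins into the nucleus, lay on the other side of 0. It had 4458 counts in the shcircSmad5 library and 5799 in the empty vector library, a log2 ratio of -0.41 (-0.47 to -0.35). Srpk2, with the same role, had 3932 and 3904 counts and an interval that held 0. The difference of 0.39 log2 units between both paralogs (0.30 to 0.47) exceeded counting error, and it was 0.13 with each chromosome centred. Srpk1 lies on chromosome 17, whose other genes had a median of -0.39.

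The 20 hnRNP genes were split evenly, with 10 above 0 and 10 below and a median log2 ratio of -0.00. Those with the highest and the lowest ratio were Hnrnpa1 and Hnrnph2. Hnrnpa1, a repressor of exon inclusion and the classical antagonist of Srsf1, had 20940 counts in the shcircSmad5 library and 15405 in the empty vector library, which is 533.9 and 401 CPM. Its log2 ratio was 0.41 (0.38 to 0.44). Hnrnph2, an X-linked gene whose protein binds runs of G, had 3851 counts in the shcircSmad5 library and 5640 in the empty vector library, which is 98.2 and 146.8 CPM. Its ratio was 1.495-fold lower, a log2 ratio of -0.58 (-0.64 to -0.52), just short of the 1.5-fold limit. The other genes of the X chromosome had a median of -0.43.

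Within the hnRNP A family the members differed from each other. Hnrnpa2b1, a reader of RNA sorting signals, had 20176 counts in the shcircSmad5 library and 19642 in the empty vector library, an interval that held 0. Hnrnpa3 had 17340 and 21117 counts and a log2 ratio of -0.31 (-0.34 to -0.29), which placed Hnrnpa1 0.73 log2 units above it (0.69 to 0.77), or 0.37 with each chromosome centred. Hnrnpa0, a single-exon relative, was level within counting error. Hnrnpa1 and Hnrnpa3 have processed pseudogenes, and 45.9% and 27.2% of the 60-base words of their coding transcripts also occur in other annotated transcripts. The pseudogenes of Hnrnpa1 that share such words had 479 counts in the shcircSmad5 library and 424 in the empty vector library, and those of Hnrnpa3 had 293 and 376. With these counts added, the log2 ratios were 0.41 for Hnrnpa1 and -0.32 for Hnrnpa3. How reads that match both a gene and its pseudogene were counted is not given. Any that were left out are not recovered by this sum.

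Among the hnRNP D genes, whose proteins bind AU-rich elements, Hnrnpd stood apart. It had 6279 counts in the shcircSmad5 library and 8267 in the empty vector library, a log2 ratio of -0.43 (-0.47 to -0.38). Its neighbour and paralog Hnrnpdl on chromosome 5 had 9437 and 9496 counts and an interval that held 0, and the chromosome median was -0.13. Hnrnpab, the most abundant of all 50 genes per length, had 27299 counts in the shcircSmad5 library and 25955 in the empty vector library, a log2 ratio of 0.04 (0.02 to 0.07). Phykpl, on the opposite strand, overlaps 29.1% of the exonic bases of Hnrnpab and had 554 and 228 counts.

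The F and H proteins bind runs of G and often favour inclusion of nearby exons. Hnrnpf, second in level per length, had 23957 counts in the shcircSmad5 library and 23349 in the empty vector library and was level within counting error. Hnrnph1 had 7859 and 6813 counts and a log2 ratio of 0.18 (0.13 to 0.22), which lay 0.76 log2 units above that of Hnrnph2 (0.68 to 0.83), or 0.24 with each chromosome centred. Hnrnph3 was the gene with the fewest counts, 377 in the shcircSmad5 library and 297 in the empty vector library. Its log2 ratio of 0.31 had the widest interval of the hnRNP genes, 0.09 to 0.54.

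Hnrnpl, which binds CA repeats, and its paralog Hnrnpll, known as a regulator of Ptprc splicing in T cells, lay on opposite sides of 0, although Hnrnpll was at 0.03 with each chromosome centred. Hnrnpl had 14829 counts in the shcircSmad5 library and 12810 in the empty vector library, a log2 ratio of 0.18 (0.15 to 0.22). Hnrnpll had 2492 and 3116 counts and a log2 ratio of -0.35 (-0.43 to -0.28), and it lies on chromosome 17. Hnrnpm, also on chromosome 17 and known for promoting mesenchymal splice forms, had 4806 counts in the shcircSmad5 library and 6472 in the empty vector library, a log2 ratio of -0.46 (-0.51 to -0.41). Part of its exons, 14.7% of the bases, is shared with March2 on the same strand, and reads there may have been left out or given to either gene.

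Hnrnpk, a binder of C-rich RNA, had 30315 counts in the shcircSmad5 library and 27255 in the empty vector library, a log2 ratio of 0.12 (0.10 to 0.15). Hnrnpu, a scaffold-attachment protein of chromatin, had 26052 and 30219 counts and a log2 ratio of -0.24 (-0.27 to -0.22). Its paralogs Hnrnpul1 and Hnrnpul2 had log2 ratios of -0.03 and 0.05. Hnrnpc, which binds U tracts and masks cryptic exons, had 8485 counts in the shcircSmad5 library and 8375 in the empty vector library, an interval that held 0. Hnrnpr had a log2 ratio of -0.15 (-0.23 to -0.07) that became 0.06 with each chromosome centred.

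Among the PTB genes, which encode repressors that bind pyrimidine tracts, the neuronal paralog Ptbp2 had the highest ratio. Ptbp2 had 1052 counts in the shcircSmad5 library and 824 in the empty vector library, a log2 ratio of 0.32 (0.19 to 0.46). Ptbp1, the form found in most tissues, had 21061 and 22849 counts and a log2 ratio of -0.15 (-0.17 to -0.12). Ptbp3 had 16756 and 18263 counts and the same log2 ratio as Ptbp1 within counting error. With each chromosome centred, the log2 ratios were 0.19 for Ptbp2, 0.06 for Ptbp3 and -0.22 for Ptbp1. Ptbp2 was the gene with the lowest level per length in both libraries, at 2.99 FPKM in the shcircSmad5 library and 2.29 FPKM in the empty vector library. A pair of models inside its introns on the same strand, Gm43300 and Gm42664, had log2 ratios of 1.08 (0.61 to 1.57) and 0.69 (0.41 to 0.98). Their part in the count of Ptbp2 was not tested.

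The subunits of U2AF, which together recognise the 3′ splice site, lay on opposite sides of 0, although U2af1 was at 0.15 with each chromosome centred. U2af2, the large subunit that binds the pyrimidine tract, had 17807 counts in the shcircSmad5 library and 14679 in the empty vector library, a log2 ratio of 0.25 (0.22 to 0.28). U2af1, the small subunit that reads the terminal AG, had 2458 and 2831 counts and a log2 ratio of -0.23 (-0.31 to -0.16), and it lies on chromosome 17. Of the 60-base words of U2af1, 48.2% occur in other annotated transcripts. Its pseudogenes held 21 counts in the shcircSmad5 library and 19 in the empty vector library. How reads that match both were counted is not given, and their part in the ratio was not tested. Sf3b1, the branch site protein of the U2 particle, had 16054 and 13767 counts and a log2 ratio of 0.19 (0.16 to 0.22).

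The LUC7-like proteins attach to the U1 particle and affect the choice of 5′ splice site. Luc7l2 had 13543 counts in the shcircSmad5 library and 9681 in the empty vector library, a ratio of 1.37-fold and a log2 ratio of 0.45 (0.42 to 0.49). A noncoding gene on the opposite strand covers 18.9% of its exonic bases. Luc7l3 had 4243 and 3422 counts and a log2 ratio of 0.28 (0.22 to 0.35). Luc7l, on chromosome 17, had 2371 counts in the shcircSmad5 library and 2565 in the empty vector library, a log2 ratio of -0.14 (-0.22 to -0.06) that became 0.24 with each chromosome centred. Luc7l2 lay 0.60 log2 units above Luc7l (0.51 to 0.69), a difference that was 0.064 with each chromosome centred.

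Besides Srsf4, Hnrnpab and Luc7l2, genes with many exonic bases under opposite-strand exons were Hnrnpf (26.5%), Srsf2 (25.3%), Ptbp1 (20.7%) and Clk3 (15.2%). The partner of Ptbp1, E130317F20Rik, had 170 counts in the shcircSmad5 library and 9 in the empty vector library, against 21061 and 22849 for Ptbp1. The part of such transcripts in the ratios was not tested.

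Levels per length were compared with the deposited FPKM, which is scaled to total counts and lies 0.06 log2 units above the TMM scale in the ratio. The order of the genes was nearly the same in both libraries, with a Pearson correlation of log2 FPKM of 0.99 over 50 genes, which share libraries and gene lengths. Hnrnpab led with 256 FPKM in the shcircSmad5 library and 238 FPKM in the empty vector library. Hnrnpf followed with 205 and 195 FPKM and Hnrnpa1 with 173 and 124 FPKM. At the low end stood Hnrnpr with 3.02 FPKM in the shcircSmad5 library and 3.22 FPKM in the empty vector library, Hnrnph3 with 3.12 and 2.40 FPKM, and Ptbp2. The largest move in rank was that of Hnrnph2, which was 32nd in the shcircSmad5 library and 20th in the empty vector library. Srsf4 was 40th and 47th.

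**Figure D2:**
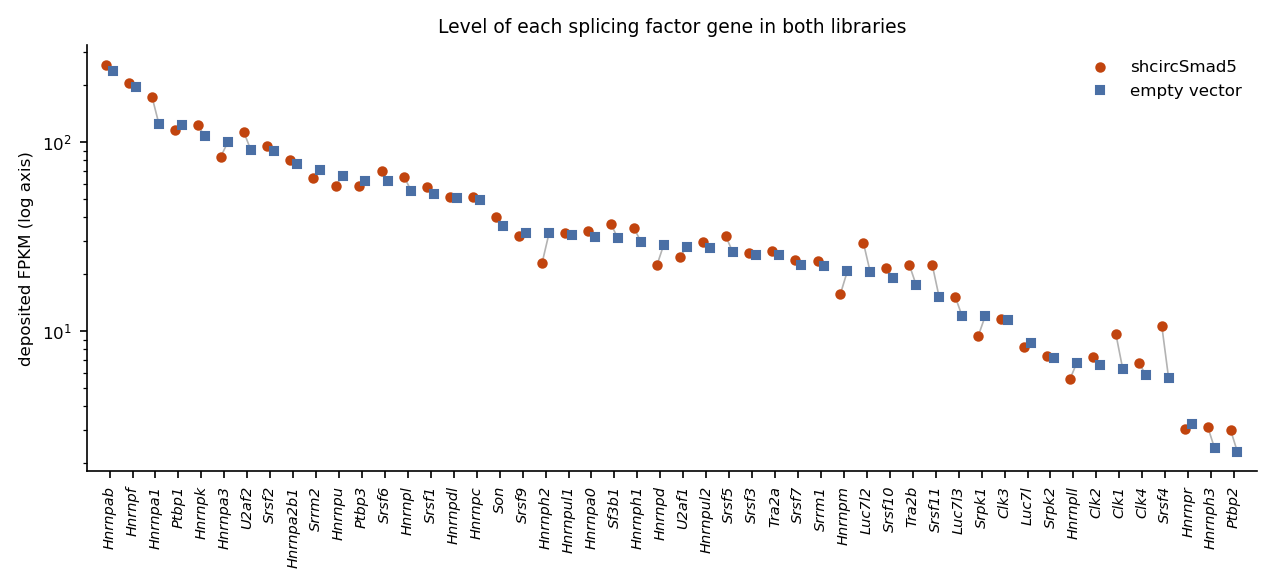
Deposited FPKM of each splicing factor gene on a log axis, with the shcircSmad5 library (circles) left of the empty vector library (squares) and genes in the order of the empty vector values. Levels run from 2.29 FPKM for Ptbp2 (empty vector) to 256 FPKM for Hnrnpab (shcircSmad5), and the pair farthest apart is that of Srsf4.

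Since paralogs can substitute for each other in part, the share of each gene in the summed FPKM of its family was compared. The order of paralogs differed between the libraries in the CLK family and the F and H family and in none of the others. In the hnRNP A family, Hnrnpa1 made up 46.7% in the shcircSmad5 library and 37.5% in the empty vector library, and Hnrnpa3 made up 22.6% and 30.1%. In the CLK family, Clk1 made up 27.3% in the shcircSmad5 library and 20.8% in the empty vector library, while Clk3 made up 32.9% and 38%. Srpk1 held 56.0% of the SRPK sum in the shcircSmad5 library and 62.5% in the empty vector library. Luc7l2 held 55.5% of the LUC7-like sum in the shcircSmad5 library and 49.7% in the empty vector library.

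Srsf4 was a minor part of its subfamily in both libraries. It held 9.50% in the shcircSmad5 library and 5.97% in the empty vector library, and Srsf6 held 62.2% and 66.1%. In the F and H family the order of Hnrnph1 and Hnrnph2 was reversed between the libraries, with 13.2% and 8.63% in the shcircSmad5 library against 11.4% and 12.6% in the empty vector library. Ptbp1 held 65.4% of the PTB sum in the shcircSmad5 library and 65.6% in the empty vector library, the least shifted of the leading paralogs.

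**Figure D3:**
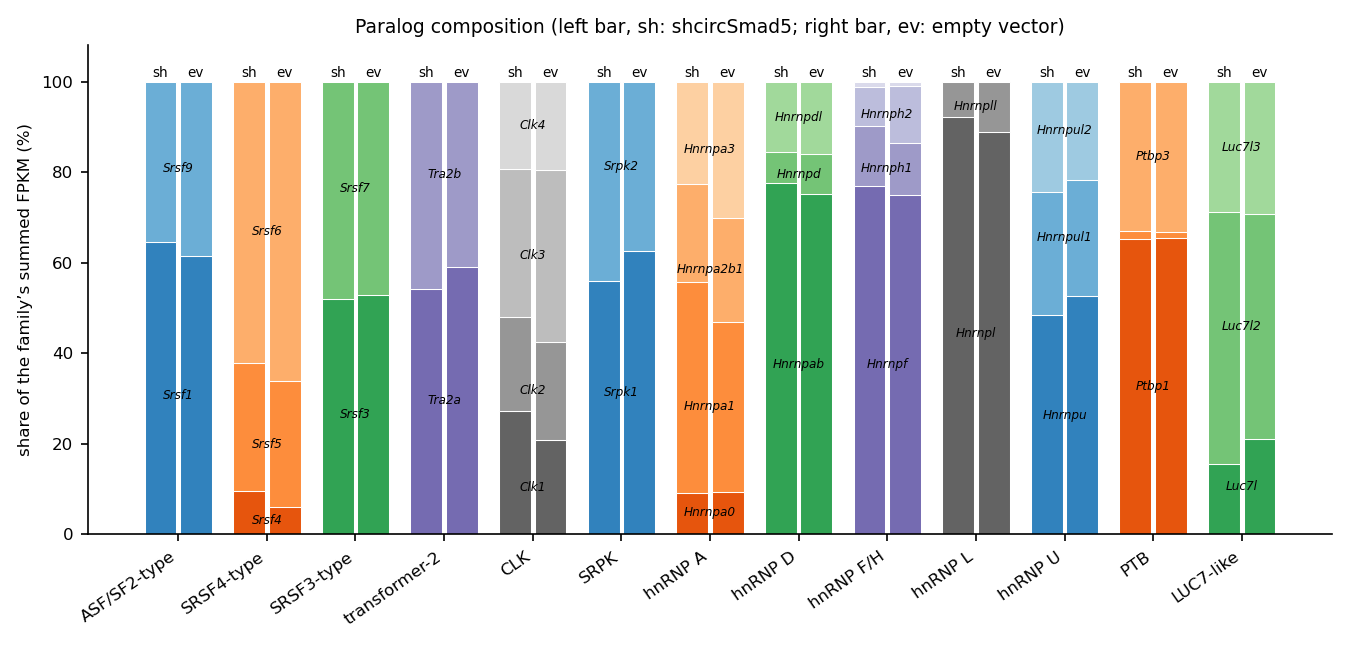
Share of each paralog in the summed FPKM of its family, in percent, with the shcircSmad5 library as the left bar and the empty vector library as the right bar of each pair. The widest shifts are in the hnRNP A family, where Hnrnpa1 takes 46.7% in the shcircSmad5 library and 37.5% in the empty vector library, while the PTB bars are nearly identical.

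Ratios of the splicing factor genes moved with those of their chromosomes. Chromosome medians of the other genes ran from -0.43 on X and -0.39 on 17 to 0.20 on 15 among the chromosomes that hold members. Across the 50 genes, Pearson's r between the log2 ratio and the chromosome median was 0.53 and Spearman's rho 0.54, as a description of genes that share 2 libraries. The 8 genes on chromosome 17 were Srsf3, Srsf7, Srrm2, Srpk1, Hnrnpll, Hnrnpm, U2af1 and Luc7l. Of these 7 had log2 ratios below 0, with a median of -0.22, beside 13 of the 42 on other chromosomes, with a median of 0.06. The other 635 genes on chromosome 17 had a median of -0.39.

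Set against its own chromosome, Srsf7 lay 0.41 above the median and Srsf3 0.35 above it, while Hnrnpm and Srpk1 lay 0.07 and 0.02 below. In all, 31 of the 50 genes lay above the median of their chromosome and 19 below. Over all genes with at least 20 counts, 6788 lay above and 6776 below. Over those with at least 1000 counts, 2915 lay above and 3956 below. Srsf4 lay 1.08 above that of chromosome 4, which was -0.21, and so passed the 2-fold limit when each chromosome was centred. Clk1 lay 0.53 above its own and Hnrnph2 0.15 below. The part of the chromosome differences in each ratio was not tested.

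**Figure D4:**
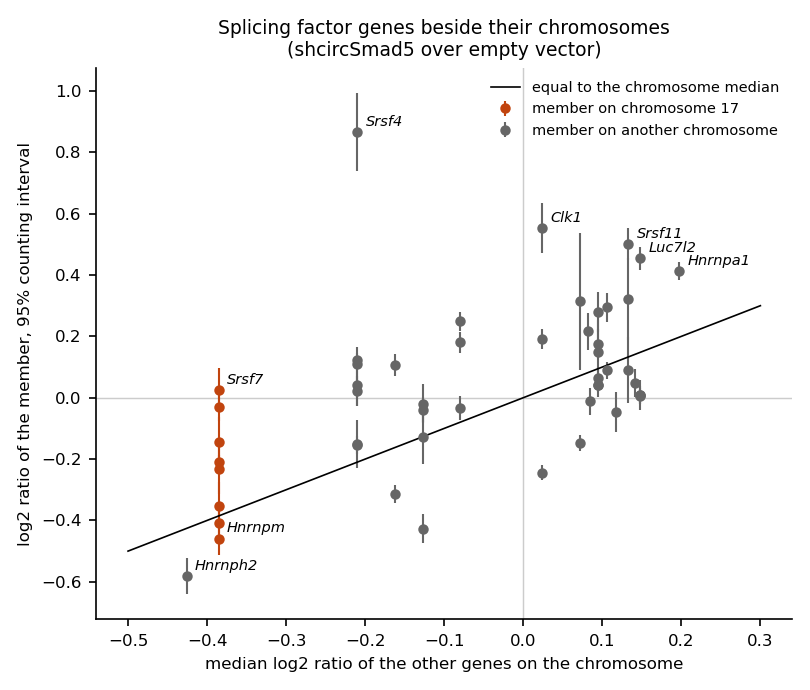
Log2 ratio of each splicing factor gene (shcircSmad5 over empty vector, with its 95% counting interval) against the median of the other genes on its chromosome. The 8 splicing factor genes on chromosome 17 (orange) stand where the other genes of that chromosome have a median of -0.39, 6 of the 8 above the line of equality, and Srsf4 lies farthest from that line.

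Other genes of the splicing machinery were described by the same call rules. Of 110 genes with at least 20 counts in 7 lists chosen by function, 1 was called higher and 1 lower at 2-fold, and 4 were called higher and 4 lower at 1.5-fold. Their median log2 ratio was -0.03 and their interquartile range 0.33, beside an interquartile range of 0.32 over the 50 splicing factor genes. The SD was 0.50 over these list genes, which include Celf2 at 2.48 and Srrm4 at -3.49, and 0.27 over the 50. The U2 particle genes (16, median -0.01), the tri-snRNP and catalytic factors (26, median -0.01) and the decay factors that act on poison exons (15, median -0.11) had no member past 1.5-fold, and the 11 decay factors with at least 1000 counts had a median of 0.054. Prpf8, the scaffold of the catalytic core, had 29266 counts in the shcircSmad5 library and 26665 in the empty vector library, a log2 ratio of 0.10 (0.08 to 0.13), and Snrnp200, the helicase that unwinds U4 from U6, had a log2 ratio of -0.07 (-0.11 to -0.04). Sf3b3 and Sf3b2 of the U2 particle had log2 ratios of -0.30 (-0.32 to -0.27) and -0.13 (-0.16 to -0.10). Upf1, the helicase of nonsense-mediated decay, had 7668 and 8513 counts and a log2 ratio of -0.18 (-0.23 to -0.14), and Smg1, the kinase that phosphorylates it, had 17216 and 18506 counts and -0.13 (-0.16 to -0.10).

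The 9 genes of the U1 list had a median of 0.28, though 4 of the 9 lay below 0, and the 8 with at least 1000 counts had a median of 0.11. Prpf40b, a U1-associated factor, had 778 counts in the shcircSmad5 library and 392 in the empty vector library, a log2 ratio of 0.96 (0.78 to 1.14), and was named after its value was seen. Rbm25 had 6592 counts in the shcircSmad5 library and 5256 in the empty vector library and a log2 ratio of 0.30 (0.24 to 0.35). Among the Sm and LSm genes (14, median -0.03), Lsm2 on chromosome 17 was the only one past 1.5-fold, with 891 counts in the shcircSmad5 library and 1585 in the empty vector library, and was named for that. The most counted of them, Snrpd3 and Snrpb, had log2 ratios of -0.08 (-0.14 to -0.02) and -0.09 (-0.16 to -0.03).

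The 18 other hnRNP-like genes had a median log2 ratio of -0.04. Fubp1, which binds single-stranded nucleic acids, had 14838 counts in the shcircSmad5 library and 9151 in the empty vector library, a log2 ratio of 0.67 (0.63 to 0.71). Khsrp, a decay factor on chromosome 17, had 6512 and 9814 counts and a log2 ratio of -0.62 (-0.67 to -0.58). Pcbp4 had a log2 ratio of -0.66 (-0.79 to -0.53), and all 3 of these were named after their values were seen. Summed over both libraries, the most counted genes of the list were Pcbp2, with 16397 and 14101 counts and a log2 ratio of 0.19 (0.16 to 0.22), and Ewsr1, with 13923 and 13040 counts and a log2 ratio of 0.06 (0.03 to 0.10).

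Regulators restricted to certain tissues spread the most. Of the 21 listed, 17 were matched by gene name, and 12 of these had 20 counts or more. Their median was -0.13, which was 0.021 over the 10 with at least 100 counts and 0.084 with each chromosome centred. Celf2 had 364 counts in the shcircSmad5 library and 64 in the empty vector library, a log2 ratio of 2.48 (2.09 to 2.88). Srrm4, a neuronal activator of microexons, had 0 and 33 counts. With 3 counts in place of the 0 it was 11.2-fold lower, a log2 ratio of -3.49, and the upper end of its interval was -3.11. The epithelial regulator Esrp1 had 5446 counts in the shcircSmad5 library and 7707 in the empty vector library, a log2 ratio of -0.53 (-0.58 to -0.48), while its paralog Esrp2 had 2791 and 3025 and -0.15 (-0.22 to -0.07). Rbfox2 had 10099 and 6824 counts and a log2 ratio of 0.54 (0.49 to 0.58). The Esrp genes and Rbfox2 did not pass 1.5-fold, while Rbm47 did, with 1556 counts in the shcircSmad5 library and 970 in the empty vector library, and these 4 were named after their values were seen.

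**Figure D5:**
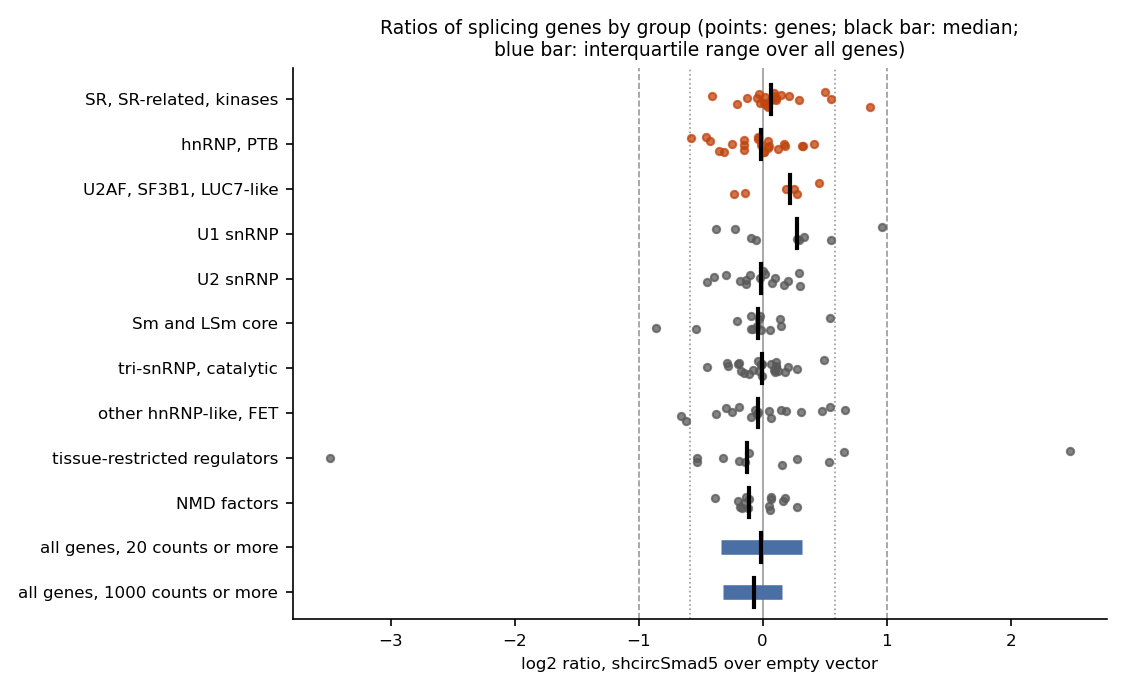
Log2 ratios (shcircSmad5 over empty vector) of the splicing factor genes (orange points) and of the other splicing lists (grey points), with black bars for medians and blue bars for the interquartile range over all genes. Dotted and dashed lines mark 1.5-fold and 2-fold. Most genes lie between the dotted lines, and the farthest from 0 are Celf2, at 2.48, and Srrm4, plotted at -3.49 with 3 counts in place of 0.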

How the data were processed

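Ribosomal RNA was removed and strand-keeping libraries were made from 3 µg of total RNA per sample, per the labels' protocols. The submitters' processing notes name HISAT2, HTSeq 0.13.5, and GRCm38 beside GRCh38, with no roles. Settings, annotation and strand handling of the counting: not given in the sources used here. Per the file headers, each library has a count and an FPKM per gene. The counts the authors deposited are raw whole numbers. The deposited FPKM equals the count over the column total and a gene length that was whole within 0.001 bases for 100.0% of genes, and equal to the GENCODE M21 exon length for 98.0% in the shcircSmad5 library and 97.9% in the empty vector library. Columns of values left unmatched numbered 0.

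TMM scaling used edgeR 4.0.16 (R 4.3.3). With 1 library per group no model was fitted. Each ratio has a 95% Clopper-Pearson (exact) interval (scipy 1.17.1), taken from how a gene's counts divide between libraries, and those of a difference between paralogs are Woolf intervals of the log odds ratio. Neither covers more than counting error, and without molecular identifiers reads are not independent molecules. Calls needed 20 counts. All members are reported, in full those past a fold limit and, per role, those with the highest ratio, lowest ratio and highest FPKM, and from each list the genes past 2-fold (at most 4) or, where there were none, the 2 with the most counts. Of the list genes so chosen, 1 is not reported here. The members and lists were chosen with earlier results of these data known. Annotation, overlaps, transcript classes and exon sequences came from GENCODE M21 on GRCm38, and mature miRNAs from RefSeq on GRCm38.p6. The interval and call code was tested on simulated counts.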

Additional observations from a re-analysis of the deposited data

How the results depend on the processing

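No gene of the 50 was called at 2-fold, and Srsf4 alone was called at 1.5-fold, under TMM. The same calls were made with DESeq2 1.42.0 size factors, a prior count of 2 and log2(FPKM + 1). They were also made with no count minimum, with minimums of 100 or 1000 counts, and without the members on chromosome 17. These last settings could not have changed the calls. They alter no ratio, no member lies under 20 counts, and the members they drop were not called. Clk1 joined Srsf4 at 1.5-fold, for a count of 2, with total counts, upper quartile scaling and log2(FPKM + 0.1). It also did so with totals without mitochondrial and the top 20 genes. With each chromosome centred, the count at 2-fold was 1 (Srsf4). Without members that have 10% or more of their exonic bases under opposite-strand exons, the count at 1.5-fold was 0. The median of the members, 0.03, was 0.10 with total counts, 0.10 with upper quartile scaling, 0.11 with trimmed totals, 0.10 and 0.092 on the FPKM scales with pseudocounts of 0.1 and 1, 0.084 with each chromosome centred, 0.077 without the hnRNPs and 0.0090 without the SR proteins. The median of all genes was -0.02 under TMM and at most 0.06 under the other scalings. The medians of the hnRNPs, the U2 particle genes, the tri-snRNP genes and the other hnRNP-like genes, each between -0.04 and 0 under TMM, were above 0 with trimmed totals, at 0.075, 0.065, 0.069 and 0.036. Of the 50 members, 29 kept the sign of their log2 ratio under all of these scalings and units and 21 did not. Those that did not include Srsf1, Srsf2, Srsf3, Srrm2, U2af1, Luc7l, Hnrnpll and Ptbp3. The minimum of 1000 counts and the sets without overlapping or chromosome 17 genes were chosen after seeing the data. No paired analysis was possible because each group has 1 library. At this depth 13 of the 50 intervals held 0. The spread between cultures was not measured.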

Other observations

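The labels give the hairpin's target. If the guide strand is its exact reverse complement, which was not tested, bases 2 to 8 of the guide (in capitals) are those of miR-130a-3p and miR-301a-3p, mature mouse miRNAs shown here from RefSeq to compare the seeds.
hairpin guide, assumed: tAGTGCAAgtcctctgctgga
mmu-miR-130a-3p: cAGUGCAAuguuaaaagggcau
mmu-miR-301a-3p: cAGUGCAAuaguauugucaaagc
The 7-base match to this seed, TTGCACT on the transcript strand, occurs in the 3′ UTR of 7 of 50 splicing factor genes (14%) and of 10.8% of 11481 other protein-coding genes with at least 20 counts. The 7 genes were Hnrnpd, Srsf7, Ptbp3, Srpk2, Hnrnpr, Srsf3 and Hnrnpul2, and their median log2 ratio was -0.03, beside 0.04 for the 43 without a match. Over the other genes the medians were -0.07 with and -0.05 without a match. The 3′ UTRs with a match were longer, with a median of 4272 bases against 803 among the splicing factor genes. This search was chosen after the data were seen, and a match is not shown to be a site. The whole target occurred in 0 of 505 annotated transcripts of the splicing factor genes.

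Models that lie inside introns of these genes on the same strand were measured in 5 of them. Besides those in Srsf4 and Ptbp2, Gm43362 in Srsf11 had 159 counts in the shcircSmad5 library and 105 in the empty vector library, a log2 ratio of 0.57 (0.20 to 0.94). In Srpk2 and Luc7l the intervals held 0. The class of TEC models, unspliced transcripts that await experimental testing, had a median log2 ratio of 0.64 over 667 models, beside -0.05 for protein-coding genes.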
